A study of Homo sapiens with 30 samples.

Results

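Gene expression was compared between lineage 22 and lineage 45 after both had grown in a mixed culture and had been separated again. Both are lineages of MDA-MB-231, a human triple-negative breast cancer cell line, and the labels give the genotype of each as wild type and a distinct lineage. The comparison uses all libraries labelled as one of these lineages from co-culture, which is 6 of the 30 libraries of the series, 3 for lineage 22 and 3 for lineage 45. All 26475 genes of their count table were considered, and 14570 had enough counts to be tested. Before collection both lineages spent 15 days in a co-culture of 6 members in RPMI-1640 with 10% dialyzed fetal bovine serum and 2 mM L-glutamine, with a passage through a bottleneck every 3 days. They were recovered by fluorescence-activated cell sorting and extracted with the same column kit, so lineages 22 and 45 shared medium, time, sort and extraction. The marker used for the sort is not given in the sources used here. A further 6 libraries of the same lineages, 3 of lineage 22 and 3 of lineage 45, were grown alone in that medium for about 24 h, lysed in TRIzol and extracted with a related kit. These isolation libraries are set beside the co-culture values.

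MDA-MB-231 cells are known for a basal and mesenchymal character, with abundant vimentin and little of the luminal hormone-receptor programme. A cancer cell line is a mixture of clones, and lineages drawn from it can keep stable differences in expression over many divisions. Clones that share a culture also share its medium, and the title of the series places these samples in work on cooperation through exchanged soluble metabolites. The comparison therefore asks how far lineages 22 and 45 remained distinct in RNA after growing in the same medium.

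The 6 libraries held totals of 32125882 to 35502340 counts. Replicates of a group differed by more than sampling noise, so none was counted as a duplicate. Nothing in the labels says that replicates are separate cultures. The p-values therefore measure only how far these samples spread, which may be technical. The cell line check gave vimentin (VIM) at 5606, 5716 and 6409 counts per 1000000 counts (CPM) in lineage 22, against 3606, 4257 and 3829 CPM in lineage 45. The luminal genes ESR1 and PGR had 1 and 9.5 counts in all lineage 22 libraries together, against 0 and 4 counts in all lineage 45 libraries. Keratin 19 (KRT19), also listed as luminal and low, went against that list with 559.5, 502 and 696 CPM in lineage 22 and 443, 418 and 442 CPM in lineage 45. Lineage 22 libraries correlated with isolated lineage 22 at a mean of 0.962 and with isolated lineage 45 at 0.958 on the log2 CPM scale. Lineage 45 libraries correlated with isolated lineage 22 at 0.951 and with isolated lineage 45 at 0.970.

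Lineages 22 and 45 differed in the RNA of about 1 gene in 4. Of the 14570 genes tested, 1922 (13.2%) were higher in lineage 22 and 1747 (12%) were lower, by edgeR's quasi-likelihood test with a Benjamini-Hochberg adjusted p under 0.05. Both directions together made up 25.2% of genes, and below, rose, fell, higher and lower refer to genes that passed this test. Most differences were small, since 369 genes (2.53%) were at least 2-fold higher and 265 (1.82%) at least 2-fold lower. The libraries of lineages 22 and 45 did not overlap for 4784 genes, or 32.8% of those tested. In bulk RNA, fewer cells that express a gene and less RNA per cell cannot be told apart. A test of the 6 libraries alone, which estimates the spread from fewer samples, called 997 genes higher and 808 lower.

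Large rises among genes of at least 5 CPM in lineage 22 included MAGEB2 and ENG. MAGEB2 (chromosome X, positions 30215560 to 30220089 of GRCh38), a cancer-testis antigen that most adult tissues do not express, had 48.9, 53.1 and 52.0 CPM in lineage 22, against 1.24, 3.51 and 2.21 CPM in lineage 45. The lowest lineage 22 library thus lay far above the highest lineage 45 library, with a log2 difference of 4.47 ± 0.28 (standard error, SE; edgeR adjusted p = 5.13e-07). ENG (chromosome 9, positions 127815012 to 127854756) encodes endoglin, a co-receptor for ligands of the TGF-beta family. It had 11.2, 14.5 and 12.9 CPM in lineage 22 and 0.396, 0.965 and 0.623 CPM in lineage 45, with no overlap and a log2 difference of 4.28 ± 0.28 (SE; edgeR adjusted p = 2.91e-09).

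VIPR1, CHRM3 and ROBO1, which encode surface receptors, also rose in lineage 22. VIPR1, a receptor for vasoactive intestinal peptide, had 43.5, 44.9 and 41.4 CPM in lineage 22, against 3.45, 6.00 and 5.69 CPM in lineage 45 (log2 difference 3.10 ± 0.15, SE). CHRM3, the M3 muscarinic acetylcholine receptor, had 6.60, 6.24 and 7.54 CPM in lineage 22 and 0.622, 1.05 and 0.792 CPM in lineage 45. ROBO1, a receptor for Slit guidance cues, had 25.9, 33.5 and 32.3 CPM in lineage 22 and 2.26, 5.85 and 3.31 CPM in lineage 45. In each of these receptors every lineage 22 library exceeded every lineage 45 library by several fold. The secreted proteins CLEC11A, a C-type lectin growth factor, and CST6, a cystatin that inhibits cysteine proteases, rose by log2 3.42 ± 0.27 and 3.10 ± 0.19 (SE). SAA1, an acute-phase serum amyloid, rose by 2.78 ± 0.32, and the counting may split its reads with its close relative SAA2. MYO1F, a class I myosin, rose by log2 2.84 ± 0.19, and COBL, an actin nucleator, by 3.03 ± 0.23. LARGE, a glycosyltransferase that modifies dystroglycan, rose by 3.44 ± 0.28, ERCC6, a factor of transcription-coupled DNA repair, by 2.77 ± 0.22, and KIAA1644 by 3.52 ± 0.37. FKBP9P1 rose by 3.65 ± 0.25, but it is a pseudogene of FKBP9, so its reads may be shared with that gene. The edgeR adjusted p values of these 12 rises ran from 7.02e-11 for VIPR1 to 1.74e-05 for SAA1.

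The 15 largest falls among genes of at least 5 CPM in lineage 45 were led by COX7B2 (chromosome 4, positions 46734827 to 46909235), which encodes a testis-type subunit of cytochrome c oxidase. It had 0.402, 0.264 and 0.336 CPM in lineage 22, against 13.9, 7.28 and 7.75 CPM in lineage 45. Its log2 difference was -4.83 ± 0.36 (SE; edgeR adjusted p = 4.29e-07). PTGFRN (chromosome 1, positions 116910057 to 116990358), a membrane protein that binds tetraspanins, had 0.746, 0.586 and 0.404 CPM in lineage 22 and 7.81, 8.07 and 8.52 CPM in lineage 45, a log2 difference of -3.79 ± 0.25 (SE; edgeR adjusted p = 2.55e-09). MMP1 (chromosome 11, positions 102789920 to 102798160), the interstitial collagenase, had 3.59, 3.78 and 4.58 CPM in lineage 22 and 25.6, 23.8 and 18.8 CPM in lineage 45, with a log2 difference of -2.51 ± 0.22 (SE; edgeR adjusted p = 2.68e-07). In all of these the lowest lineage 45 library was several fold above the highest lineage 22 library.

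The other large falls were in genes of varied function. CDH11, a mesenchymal cadherin, had 5.65, 3.93 and 4.81 CPM in lineage 22 and 22.9, 21.4 and 23.8 CPM in lineage 45, a log2 difference of -2.24 ± 0.13 (SE; edgeR adjusted p = 7.45e-10). ADAMTS6, a secreted metalloprotease, had 2.44, 2.55 and 1.51 CPM in lineage 22 and 19.4, 14.4 and 11.5 CPM in lineage 45. The neuropeptide gene GAL (galanin) fell by log2 2.27 ± 0.23 (SE), LPL, lipoprotein lipase, by 2.23 ± 0.18, and CA2, carbonic anhydrase 2, by 2.03 ± 0.21. ZNF521, a zinc finger transcription cofactor, fell by 3.35 ± 0.20, and PDE9A, a phosphodiesterase that degrades cyclic GMP, by 3.43 ± 0.26. SIRPA, the receptor that binds CD47, fell by 1.87 ± 0.15, and DMBT1, a scavenger receptor, by 1.68 ± 0.11. KRTAP2-3, a keratin-associated protein from a multigene family whose reads may be shared, fell by 1.93 ± 0.28. The cystatins CST1 and CST4 are near-identical neighbours, so their separate values are uncertain. CST1 had 1.18, 0.645 and 2.19 CPM in lineage 22 and 6.87, 5.62 and 12.9 CPM in lineage 45. CST4 had 2.01, 0.762 and 3.03 CPM in lineage 22 and 6.25, 3.83 and 8.29 CPM in lineage 45. The edgeR adjusted p was 0.000375 for CST1 and 0.0275 for CST4. For CST4 it was 0.0635 without lineage 22 replicate 1, 0.0889 without lineage 22 replicate 2, 0.0616 without lineage 45 replicate 1, 0.0797 without lineage 45 replicate 3 and 0.0558 with the 6 libraries alone.

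**Figure D1:**
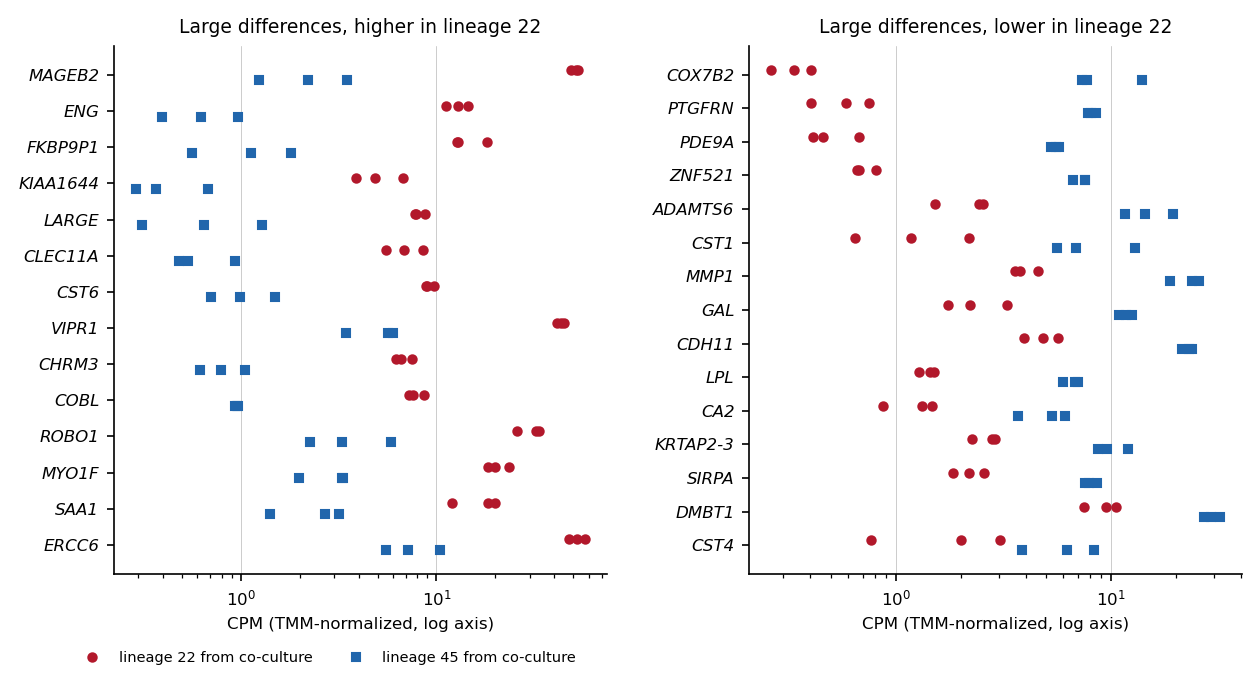
CPM (log axis) of 14 large rises (left) and the 15 largest falls (right) in every library, with lineage 22 as circles and lineage 45 as squares. No circle overlaps the squares of its gene, and the log2 difference is largest for MAGEB2 and ENG among the rises plotted and for COX7B2 and PTGFRN among the falls.

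Many of the differences between the sorted lineages were also present when the lineages grew alone. Isolation libraries of lineage 22 against lineage 45 had 2717 genes higher (18.6%) and 2881 lower (19.8%), of which 881 (6.05%) were at least 2-fold higher and 286 (1.96%) at least 2-fold lower. Of the 1922 genes higher in lineage 22 from co-culture, 985 were also higher in isolation, which is 51.2% of the co-culture genes and 36.3% of the isolation genes. A further 81 (4.21%) were lower in isolation, and 856 (44.5%) passed no test there. Of the 1747 genes lower in lineage 22 from co-culture, 979 were also lower in isolation, which is 56.0% of the co-culture genes and 34.0% of the isolation genes. In turn 114 of them (6.53%) were higher in isolation and 654 (37.4%) passed no test. These comparisons share no library, but co-culture and isolation samples differ in growth time, sorting and RNA extraction together, which cannot be told apart from the culture itself.

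SMAD6 and MMP1 are examples of differences that were of like size in both conditions. SMAD6, an inhibitor of BMP signalling, had 16.4, 15.7 and 18.1 CPM in lineage 22 from co-culture and 2.52, 3.74 and 4.53 CPM in lineage 45 (log2 difference 2.22 ± 0.17, SE; edgeR adjusted p = 2.09e-08). In isolation it had 15.0, 12.6 and 14.4 CPM in lineage 22 and 2.49, 3.46 and 2.43 CPM in lineage 45, a log2 difference of 2.32 ± 0.18. The log2 difference of MMP1 was -2.60 ± 0.22 in isolation. The difference between conditions had an edgeR adjusted p of 0.809 for SMAD6 and 0.882 for MMP1.

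For 2524 genes (17.3%) the difference between lineages itself differed between co-culture and isolation by the interaction test in edgeR, with 1347 more positive in co-culture (9.25%) and 1177 more negative (8.08%). PTGFRN changed sign. It averaged 0.754 ± 0.112 CPM in isolated lineage 22 and 0.151 ± 0.0613 CPM in isolated lineage 45 (SD, n = 3 each), so it was higher in lineage 22 by log2 2.29 ± 0.35 when alone and lower when co-cultured. The level in lineage 22 was thus similar in both conditions, while lineage 45 had far more PTGFRN in the co-culture libraries. The interaction was -6.08 ± 0.42 on the log2 scale (SE; edgeR adjusted p = 9.29e-09). CDH11 also changed sign, with 78.1 ± 6.08 CPM in isolated lineage 22 and 57.6 ± 0.615 CPM in isolated lineage 45 (SD, n = 3 each; interaction -2.68 ± 0.17, SE; edgeR adjusted p = 4.69e-09). Both lineages had less CDH11 RNA in co-culture libraries than in isolation libraries, and the drop was larger in lineage 22.

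EMB, which encodes embigin, a partner of monocarboxylate transporters, passed the test between the isolated lineages and not between the co-cultured ones. It had 9.56, 8.62 and 6.86 CPM in lineage 22 and 10.4, 9.13 and 7.19 CPM in lineage 45 from co-culture, so the groups overlapped (log2 difference -0.09 ± 0.16, SE; edgeR adjusted p = 0.729). In isolation it averaged 8.39 ± 0.295 CPM in lineage 22 and 0.0444 ± 0.0153 CPM in lineage 45 (SD, n = 3 each). The interaction was -7.54 ± 0.37 (SE; edgeR adjusted p = 1.2e-10). FRMD3, a cytoskeletal adaptor of the FERM family, showed a smaller version of this, with 32.5, 45.7 and 49.7 CPM in lineage 22 and 13.0, 20.7 and 16.3 CPM in lineage 45 from co-culture, against means of 27.9 CPM in lineage 22 and 0.160 CPM in lineage 45 in isolation.

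**Figure D2:**
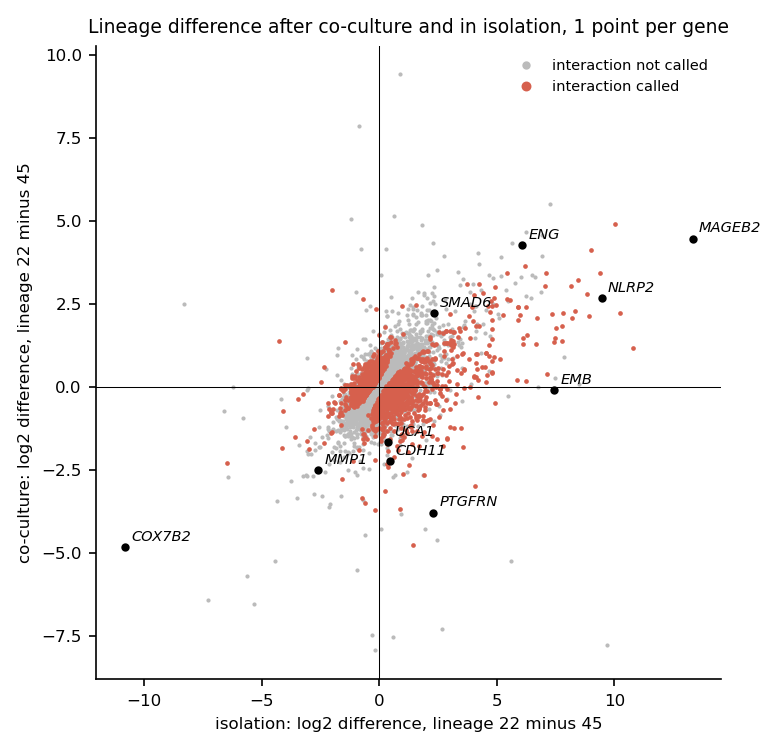
Log2 difference of lineage 22 minus lineage 45 for every gene tested, from co-culture (vertical axis) against isolation (horizontal axis), with genes whose interaction passed the test coloured. MMP1, COX7B2 and SMAD6 have the same sign on both axes, PTGFRN and CDH11 have opposite signs, and EMB lies near 0 from co-culture.

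Genes that mark isolated lineage 22 remained higher in lineage 22 after co-culture but their summed level in lineage 45 stood above that of isolated lineage 45. Markers were the genes at least 8-fold above both other isolated lineages (of lineages 22, 35 and 45), past the test, and at 5 CPM or more on average. Lineage 22 had 30 such genes, of which 28 were higher in lineage 22 from co-culture, beside 13.2% of all genes tested. The other 2, EMB and FAM133A, passed in neither direction, and the median log2 difference of the 30 was 1.77. The 30 genes summed to 319 to 350 CPM in lineage 22 and 68.4 to 92.8 CPM in lineage 45 from co-culture. In isolation they summed to 459.5 to 489 CPM in lineage 22 and 15.5 to 17.9 CPM in lineage 45. Because the markers were chosen for low levels in isolated lineages 35 and 45, a higher sum in other libraries of those lineages is favoured. A higher sum after co-culture was not particular to lineage 45. Co-culture libraries labelled lineage 35 had 112 to 121 CPM of these genes, against 6.75 to 8.87 CPM in isolated lineage 35. The level in lineage 45 from co-culture had a median of 29.3% of that in lineage 22, with a range from 4.52% for MAGEB2 to 107% for EMB.

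Lineage 45 had 3 marker genes, COX7B2, the cystatin CST1 and the guidance cue SEMA3E. All were lower in lineage 22 from co-culture, beside 12% of all genes tested. SEMA3E had 4.48, 4.49 and 4.27 CPM in lineage 22 and 13.9, 14.2 and 12.5 CPM in lineage 45. It did not mark lineage 45 after co-culture, since co-culture libraries labelled lineage 35 had 22.9, 21.7 and 21.7 CPM. These 3 genes summed to 5.39 to 6.80 CPM in lineage 22 and 27.1 to 34.7 CPM in lineage 45 from co-culture. The 9 genes that mark isolated lineage 35, which was also a member of the co-culture, summed to 5.78 to 7.26 CPM in lineage 22 and 9.57 to 10.6 CPM in lineage 45 from co-culture, against 207 to 223 CPM in isolated lineage 35. The co-culture libraries labelled lineage 35 had only 5.72 to 7.08 CPM of these 9 genes. Medians of protein-coding genes, relative to the mean of lineage 45 from co-culture, also differed on some chromosomes. On chromosome 18 they were 0.58 to 0.61 (log2) in isolated lineage 35 and -0.02 to 0.06 in these co-culture libraries. On chromosome 12 they were -0.40 to -0.38 and 0.004 to 0.02, in that order. On chromosome 7 they were alike, at 0.15 to 0.18 and 0.17 to 0.21. Whether the label is wrong or the cells changed in co-culture was not tested. The co-culture libraries labelled lineage 35 enter the fit of 18 libraries. Without any lineage 35 library 1787 genes were higher and 1521 lower in lineage 22.

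In all, 8 genes at 5 CPM or more in isolated lineage 22 had no more than 3 counts in all isolated lineage 45 libraries together. That choice favours higher values in any other libraries of lineage 45. Each of the 8 was detected in lineage 45 from co-culture. They were MAGEB2, CLEC11A, the inflammasome-related gene NLRP2, the orphan receptor gene GPR158, the galactosyltransferase gene UGT8, the kinase gene RPS6KA6 and the long noncoding RNAs LINC01139 and LINC01602. NLRP2 had 37.2, 34.2 and 44.3 CPM in lineage 22 and 3.48, 7.26 and 7.47 CPM in lineage 45 from co-culture, and its isolation counts were 2203 in lineage 22 and 3 in lineage 45. UGT8 had 18.8, 21.3 and 18.8 CPM in lineage 22 and 2.69, 5.59 and 4.30 CPM in lineage 45 from co-culture, and 1587 counts in isolated lineage 22 with 1 in isolated lineage 45. MAGEB2 had 3869 counts in isolated lineage 22 and 0 in isolated lineage 45, so it was at least 1404-fold higher in isolated lineage 22 with the 0 set to a floor of 3 counts for the whole group. In lineage 45 from co-culture these 8 genes reached 4.52% to 45.2% of their level in lineage 22, and all were higher in lineage 22. The highest share was that of RPS6KA6, whose mean in lineage 22 was 6.48 CPM in isolation and 0.466 CPM from co-culture. LINC01602, at 37.7%, had 6.56 CPM in isolated lineage 22 and 0.508 CPM in lineage 22 from co-culture. These 2 shares thus go with a low level in lineage 22 from co-culture. The call for RPS6KA6, at 47 counts in lineage 22 and 22 in lineage 45, was weak: its edgeR adjusted p of 0.038 became 0.154 without lineage 22 replicate 1, 0.0850 without lineage 22 replicate 2, 0.147 without lineage 45 replicate 1, 0.0808 without lineage 45 replicate 3 and 0.0507 with the replicate block over 18 libraries. For LINC01602 it was 0.0121, and 0.0664 without lineage 45 replicate 1. The reverse held for COX7B2, which had 0 counts in isolated lineage 22 and 736 in isolated lineage 45, and which stood in lineage 22 from co-culture at 3.47% of its level in lineage 45. What part RNA from other lineages in the sorted cells had in these values was not tested.

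**Figure D3:**
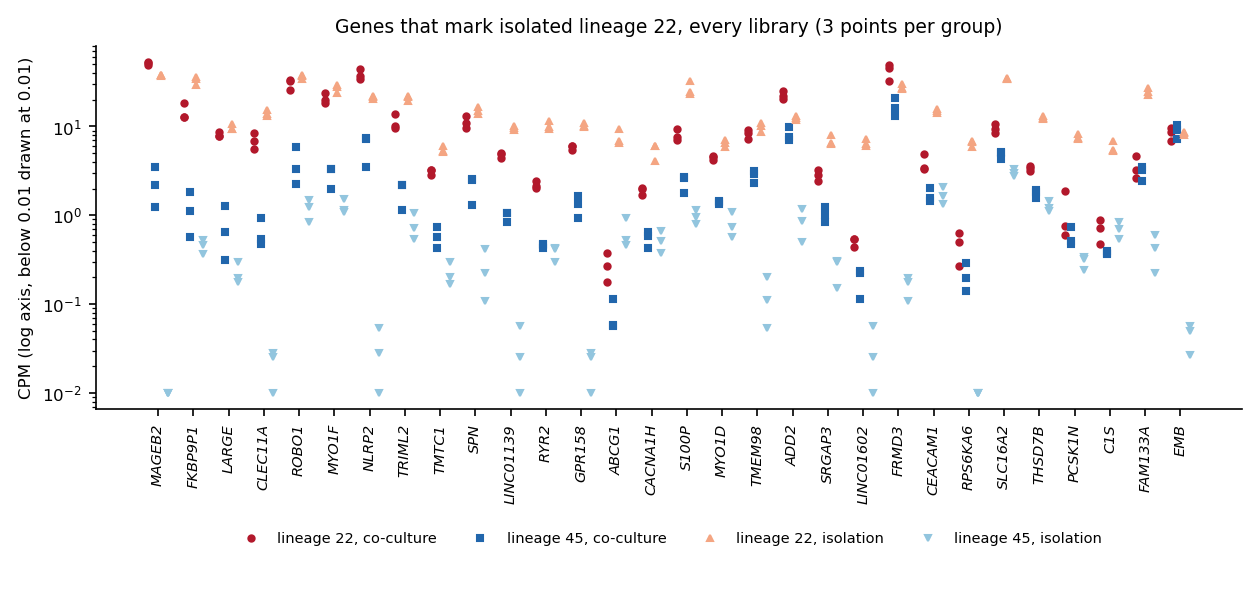
CPM (log axis, values below 0.01 drawn at 0.01) of the 30 genes that mark isolated lineage 22 in each library of the 4 groups. Co-culture libraries of lineage 45 lie between those of lineage 22 and those of isolated lineage 45 for most genes, and reach lineage 22 for EMB and FAM133A.

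Integrin and laminin genes rose more often than they fell. Of 23 integrin and laminin genes tested, 10 rose and 2 fell, or 52.2%, beside 25.2% over all genes. The median log2 difference was 0.23, beside -0.01 over all genes tested. The falls numbered 1 without lineage 22 replicate 2, lineage 22 replicate 3 or lineage 45 replicate 3. Integrins are the paired receptors that hold cells to laminin and collagen, and ITGA6 and ITGB4 encode the partners of the laminin receptor of hemidesmosomes. ITGA6 had 649.6, 677 and 747 CPM in lineage 22 and 279, 324 and 297 CPM in lineage 45 (log2 difference 1.20 ± 0.11, SE; edgeR adjusted p = 1.07e-07). ITGB4 had 574, 552 and 722 CPM in lineage 22 and 203, 218 and 279.8 CPM in lineage 45 (log2 difference 1.40 ± 0.13, SE; edgeR adjusted p = 3.01e-07). For both the groups stood clear of each other, and both differences were larger than in isolation (edgeR interaction adjusted p of 0.0481 for ITGA6 and 0.00973 for ITGB4). LAMC1, a laminin gamma chain, rose by log2 1.01 ± 0.11, and ITGA3, which pairs with beta 1 integrin to bind laminin, by 0.64 ± 0.08.

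Collagen chains and matrix enzymes moved in both directions. Of 20 collagen chains, 9 rose and 1, COL12A1, fell. COL6A2, of the microfibril-forming type VI, had 84.5, 76.8 and 118 CPM in lineage 22 and 31.9, 39.1 and 45.7 CPM in lineage 45. COL5A1, which regulates fibril width, had 193, 161 and 192 CPM in lineage 22 and 82.9, 77.7 and 99.3 CPM in lineage 45 (log2 difference 1.07 ± 0.09, SE; edgeR adjusted p = 9.92e-08). COL13A1, a transmembrane collagen, rose by 0.75 ± 0.12, and this difference exceeded that in isolation (edgeR interaction adjusted p = 0.00113). Without lineage 22 replicate 2, 2 collagen chains fell. Of 18 matrix proteases and inhibitors, 8 rose and 4 fell, or 66.7%, beside 25.2% over all genes. The falls were MMP1, ADAMTS1, ADAMTS6 and ADAM12. ADAM8, a membrane sheddase, had 155, 111 and 127 CPM in lineage 22 and 53.1, 41.6 and 65.0 CPM in lineage 45, and TIMP4, an inhibitor of matrix metalloproteases, rose by log2 1.48 ± 0.18.

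Among epithelial and mesenchymal genes alike, more rose than fell. Of 24 epithelial junction and keratin genes, 10 rose and none fell in edgeR (11 higher and 0 lower at an unadjusted p under 0.05; 0 lower in DESeq2). The share of epithelial genes that passed was 41.7%, beside 25.2% over all genes. The simple-epithelial keratin KRT8 had 1260.0, 1304 and 1599 CPM in lineage 22 and 792, 884 and 888 CPM in lineage 45, and its partner KRT18 rose by log2 0.47 ± 0.09. F11R, the junctional adhesion molecule A, had 52.1, 49.1 and 46.0 CPM in lineage 22 and 27.4, 24.7 and 28.4 CPM in lineage 45, and CD24, a surface sialoglycoprotein, had 30.8, 29.9 and 20.4 CPM in lineage 22 and 11.9, 11.3 and 9.45 CPM in lineage 45. No epithelial libraries overlapped in these examples. A single member fell without lineage 22 replicate 2. Of 18 genes of the mesenchymal state, 8 rose and 1, CDH11, fell. VIM rose by log2 0.60 ± 0.09, and S100A4, a calcium-binding protein linked to motility, had 175, 125 and 208 CPM in lineage 22 and 91.7, 53.3 and 77.7 CPM in lineage 45. LOXL2, a lysyl oxidase that crosslinks collagen, rose by 0.58 ± 0.08.

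Of 9 S100 genes, 5 rose and none fell in edgeR (7 higher and 0 lower at an unadjusted p under 0.05; 0 lower in DESeq2), and 3 rose without lineage 22 replicate 3. S100P, a secreted member, had 7.66, 7.12 and 9.42 CPM in lineage 22 and 2.66, 1.78 and 2.69 CPM in lineage 45. In isolation S100P averaged 26.8 ± 5.28 CPM in lineage 22 and 0.965 ± 0.174 CPM in lineage 45 (SD, n = 3 each), so its difference was smaller from co-culture (edgeR interaction adjusted p = 1.34e-07). Axon guidance cues and receptors, which also steer migrating cells, had 13 rises and 6 falls among 27 genes. Among the S100 and guidance members tested, 55.6% and 70.4% passed, beside 25.2% over all genes. The semaphorin receptor PLXND1 had 159.5, 149 and 162 CPM in lineage 22 and 69.9, 75.1 and 89.9 CPM in lineage 45, and the secreted cue SEMA3A had 21.6, 19.5 and 24.2 CPM in lineage 22 and 53.5, 41.6 and 39.3 CPM in lineage 45. The libraries of lineages 22 and 45 did not overlap for either gene.

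**Figure D4:**
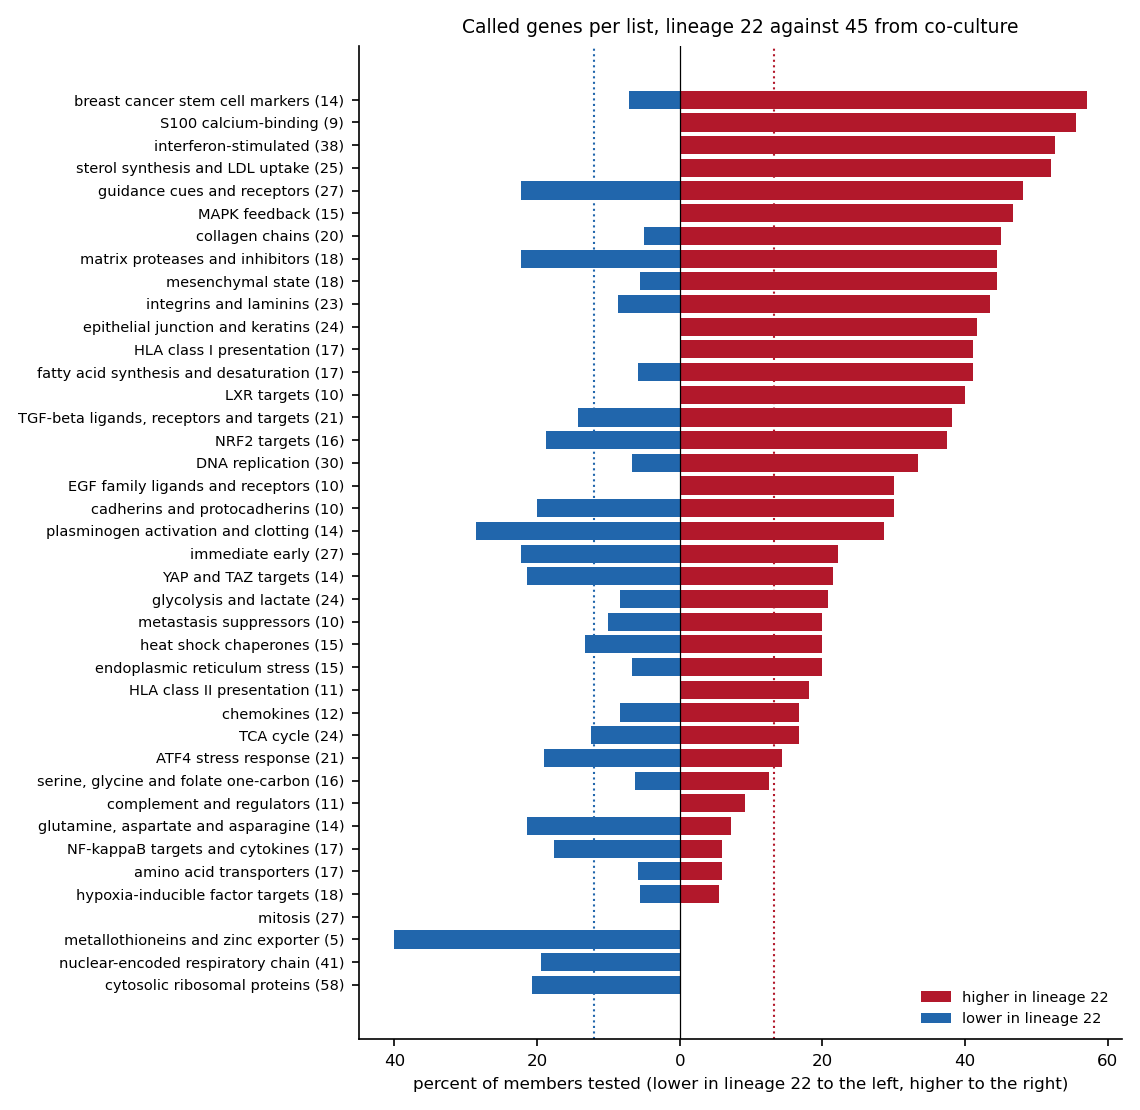
Percent of the tested members of each gene list that were higher (right) or lower (left) in lineage 22 from co-culture, with the number tested in brackets and dotted lines at 13.2% and 12%, the shares over all genes. Sterol synthesis, interferon-stimulated and S100 genes have bars to the right and none to the left, and ribosomal protein genes only to the left.

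Several growth signalling genes rose by less than 2-fold. The MAPK feedback list holds genes that ERK signalling induces, several of which restrain that pathway. Of its 15 genes, 7 rose and none fell in edgeR (8 higher and 1 lower at an unadjusted p under 0.05; 0 lower in DESeq2), with 4 rises without lineage 45 replicate 1. DUSP4, a phosphatase that inactivates ERK, had 805, 736 and 774 CPM in lineage 22 and 488, 478 and 559.9 CPM in lineage 45, and CCND1, cyclin D1, had 1149, 1212 and 1120.0 CPM in lineage 22 and 652, 841 and 822 CPM in lineage 45. The EGF receptor ligand TGFA had 102, 95.5 and 101 CPM in lineage 22 and 60.1, 56.5 and 67.0 CPM in lineage 45, and EREG, another such ligand, rose by log2 0.83 ± 0.17. EGFR itself had 274, 359 and 343 CPM in lineage 22 and 191, 284 and 276 CPM in lineage 45. Its libraries overlapped (log2 difference 0.38 ± 0.16, SE; edgeR adjusted p = 0.104), and the gene passed with the replicate block over the 6 libraries (edgeR adjusted p = 0.00292). Of 21 genes of TGF-beta signalling, 8 rose and 3 fell. Among the MAPK feedback and TGF-beta members tested, 46.7% and 52.4% passed, beside 25.2% over all genes. The ligands TGFB1 and BMP4 rose by log2 0.49 ± 0.09 and 0.60 ± 0.10 (SE), and LTBP2, a latent TGF-beta binding protein of the matrix, by 0.78 ± 0.12.

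Genes of sterol synthesis that passed the test were all higher in lineage 22. Cells make cholesterol from acetyl-CoA under control of SREBP2, which also drives the LDL receptor gene. Of 25 genes of sterol synthesis and LDL uptake, 13 rose in lineage 22 and none fell in edgeR (13 higher and 0 lower at an unadjusted p under 0.05; 0 lower in DESeq2). The share of rises was 52.0%, beside 13.2% over all genes. The median log2 difference was 0.34, and 9 to 13 members rose when each library in turn was left out. The members named here rose by less than 2-fold, and 7 members rose with the 6 libraries alone. LSS, lanosterol synthase, had 413, 332 and 398 CPM in lineage 22 and 249, 218 and 285 CPM in lineage 45, and ACAT2, the cytosolic enzyme that starts the pathway, had 296, 269.6 and 319 CPM in lineage 22 and 225, 186 and 189 CPM in lineage 45. The LSS and ACAT2 differences were not called in isolation, and the test between conditions gave edgeR adjusted p = 0.00272 for LSS and 0.0182 for ACAT2. SQLE, squalene epoxidase, rose by log2 0.49 ± 0.08.

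Of 17 genes of fatty acid synthesis and desaturation, 7 rose and 1, ACSL4, fell, or 47.1%, beside 25.2% over all genes. There were 4 rises without lineage 22 replicate 3. ACSL4 did not pass without lineage 22 replicate 2, lineage 22 replicate 3, lineage 45 replicate 1 or lineage 45 replicate 2, and 2 members fell without lineage 22 replicate 1. FASN, fatty acid synthase, had 1487, 1235 and 1363 CPM in lineage 22 and 931, 916 and 1169.5 CPM in lineage 45. In isolation FASN was lower in lineage 22, at 247 ± 13.5 CPM against 348 ± 31.9 CPM in lineage 45 (SD, n = 3 each; edgeR interaction adjusted p = 0.000635). The desaturases FADS2 and FADS1 rose by log2 0.69 ± 0.14 and 0.38 ± 0.08 (SE), and both differences exceeded those in isolation (edgeR interaction adjusted p of 0.034 for FADS2 and 0.0188 for FADS1). APOE, a lipoprotein that the nuclear receptor LXR induces, had 1.95, 1.79 and 2.86 CPM in lineage 22 and 0.368, 0.410 and 0.538 CPM in lineage 45, and NR1H3, which encodes LXR alpha, rose by 0.89 ± 0.13.

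Interferon-stimulated genes that passed the test were also higher in lineage 22. These genes encode antiviral sensors and effectors that cells switch on through STAT and IRF transcription factors. Of 38 tested, 20 rose and none fell in edgeR (22 higher and 1 lower at an unadjusted p under 0.05; 1 lower in DESeq2), with a median log2 difference of 0.37. OAS3, a sensor of double-stranded RNA, had 36.0, 38.5 and 44.4 CPM in lineage 22 and 16.5, 22.7 and 22.1 CPM in lineage 45 (log2 difference 0.96 ± 0.11, SE; edgeR adjusted p = 4.2e-06). EPSTI1, an interferon-induced gene, had 3.39, 3.81 and 5.15 CPM in lineage 22 and 1.73, 1.61 and 1.81 CPM in lineage 45 (log2 difference 1.26 ± 0.16, SE; edgeR adjusted p = 8e-06). DDX58, the RNA sensor RIG-I, had 94.9, 102 and 113 CPM in lineage 22 and 66.6, 67.8 and 63.8 CPM in lineage 45. The groups did not overlap for these sensors. The share of rises from co-culture was 52.6%, beside 13.2% over all genes. In isolation 19 members were higher in lineage 22 and 6 were lower, with a median log2 difference of 0.29. Leaving out each library in turn gave 14 to 21 rises, and 1 fall without lineage 45 replicate 3, while the 6 libraries alone gave 12 rises.

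The promoters of several of these genes carry the interferon-stimulated response element, the sequence that the STAT and IRF9 complex binds. Its core, GAAA repeated after any 2 bases, was searched on either strand from 250 bases before to 50 bases after the start in RefSeq promoters of GRCh38.p14. It was present in 19 of 30 interferon-stimulated promoters, made up of 7 of 15 members that rose and 12 of 15 that did not, and in 329 of 11375 promoters of all genes tested (2.89%). The 3 promoters below belong to the members with the smallest p among those that rose and hold the core, and are shown as examples of the regulatory sequence of the group. Capitals mark the core.
OAS3: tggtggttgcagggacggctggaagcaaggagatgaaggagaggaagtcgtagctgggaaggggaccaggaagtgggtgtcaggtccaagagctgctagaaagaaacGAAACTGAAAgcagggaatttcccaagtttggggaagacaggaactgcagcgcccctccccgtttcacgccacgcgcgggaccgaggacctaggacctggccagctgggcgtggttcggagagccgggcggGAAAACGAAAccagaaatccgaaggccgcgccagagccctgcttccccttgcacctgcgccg
EPSTI1: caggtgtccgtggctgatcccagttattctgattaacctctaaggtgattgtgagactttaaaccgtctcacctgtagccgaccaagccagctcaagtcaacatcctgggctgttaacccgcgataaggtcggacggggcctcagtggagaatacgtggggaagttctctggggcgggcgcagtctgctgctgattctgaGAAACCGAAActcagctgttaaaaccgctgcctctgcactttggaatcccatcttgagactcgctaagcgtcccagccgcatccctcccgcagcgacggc
DDX60: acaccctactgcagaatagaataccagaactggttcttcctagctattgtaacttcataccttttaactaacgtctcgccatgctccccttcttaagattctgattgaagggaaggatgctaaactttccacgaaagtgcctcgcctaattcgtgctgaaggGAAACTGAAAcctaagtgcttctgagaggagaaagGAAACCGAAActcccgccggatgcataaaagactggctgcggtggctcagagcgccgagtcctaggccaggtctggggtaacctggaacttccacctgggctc
They lie at chr12:112938224-112938523 (plus strand), chr13:42992192-42992491 (minus strand) and chr4:168318703-168319002 (minus strand), each written from 5′ to 3′ on the strand of its gene. The core is a match of letters only. A like search for the sterol element core TCACNCCAC found it in 1 of 18 sterol gene promoters and in 128 of 11375 of all (1.13%).

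Some antigen presentation genes, many of which interferon induces, rose in lineage 22. Of 17 HLA class I presentation genes, 7 rose and none fell in edgeR (7 higher and 0 lower at an unadjusted p under 0.05; 0 lower in DESeq2), with 4 rises without lineage 45 replicate 2. The share of class I genes that passed was 41.2%, beside 25.2% over all genes. PSMB9 and PSMB10 are subunits of the immunoproteasome, which cuts proteins into peptides for display. PSMB9 had 15.6, 15.1 and 19.8 CPM in lineage 22 and 7.64, 7.46 and 8.24 CPM in lineage 45 (log2 difference 1.11 ± 0.13, SE; edgeR adjusted p = 2.26e-06), and PSMB10 rose by 0.64 ± 0.13. Of 11 HLA class II presentation genes, 2 rose and none fell in edgeR (4 higher and 0 lower at an unadjusted p under 0.05; 0 lower in DESeq2), or 18.2%, below the 25.2% over all genes. The rises numbered 5 without lineage 22 replicate 2, and 1 without lineage 22 replicate 1 or 3 or lineage 45 replicate 2 or 3. CD74, the invariant chain of HLA class II, had 72.6, 51.8 and 81.8 CPM in lineage 22 and 41.8, 34.4 and 48.0 CPM in lineage 45. Of 17 NF-kappaB targets and cytokines, 1, ICAM1, rose (log2 difference 0.775) and 3 fell, or 23.5%, near the share over all genes. Leaving out each library in turn gave 1 to 3 rises and 1 to 2 falls. TNFAIP3, an NF-kappaB target that limits that pathway, was among the falls. It had 3.16, 3.14 and 3.84 CPM in lineage 22 and 5.52, 7.28 and 7.10 CPM in lineage 45 (log2 difference -0.98 ± 0.14, SE). It passed no test in isolation, and the test between conditions gave an edgeR adjusted p of 0.00039. The membrane-bound chemokine CX3CL1 had 2.18, 2.90 and 2.89 CPM in lineage 22 and 0.707, 0.731 and 0.764 CPM in lineage 45.

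Clotting and plasminogen genes split evenly, with 4 rises and 4 falls among 14, or 57.1%, beside 25.2% over all genes. F3, tissue factor, which starts clotting, had 320.1, 330.0 and 277 CPM in lineage 22 and 570.2, 577 and 522 CPM in lineage 45, and TFPI2, a protease inhibitor, fell by log2 0.73 ± 0.11. SERPINE2, protease nexin 1, had 62.4, 66.0 and 58.2 CPM in lineage 22 and 25.6, 32.7 and 29.7 CPM in lineage 45, and F2R, the thrombin receptor, rose by 0.46 ± 0.09. F3 passed no test in isolation (log2 difference -0.08 ± 0.10), and the edgeR adjusted p between conditions was 0.000978.

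Central carbon and amino acid metabolism, to which the metabolite exchange in the title relates, held single genes with clear differences, while the shares of glycolysis and TCA cycle genes that passed the test were near that over all genes. ASS1, argininosuccinate synthase, joins citrulline and aspartate on the route to arginine. It had 6.89, 6.27 and 7.91 CPM in lineage 22 and 20.5, 16.7 and 19.1 CPM in lineage 45 (log2 difference -1.42 ± 0.13, SE; edgeR adjusted p = 1.36e-07). In isolation ASS1 averaged 15.3 ± 0.871 CPM in lineage 22 and 13.3 ± 2.09 CPM in lineage 45 (SD, n = 3 each), with an interaction at edgeR adjusted p = 4.39e-06. The mitochondrial arginase ARG2 had 2.70, 2.81 and 2.96 CPM in lineage 22 and 6.14, 6.47 and 5.07 CPM in lineage 45, and ALDH18A1, which makes proline precursors from glutamate, fell by log2 0.46 ± 0.07. These 3 genes were the falls among 14 of glutamine, aspartate and asparagine metabolism, of which 1 rose (28.6% passed). Of 24 glycolysis genes, 5 rose and 2 fell, or 29.2%, beside 25.2% over all genes. PFKP, a phosphofructokinase, had 726, 739 and 842 CPM in lineage 22 and 464, 545 and 539 CPM in lineage 45, while GPI, glucose-6-phosphate isomerase, had 261, 267 and 265 CPM in lineage 22 and 390.2, 391 and 418 CPM in lineage 45. The rises numbered 3 without lineage 22 replicate 3, 2 without lineage 45 replicate 1 and 3 without lineage 45 replicate 2, and 4 genes fell without lineage 22 replicate 1. Of 24 TCA cycle genes, 4 rose and 3 fell, again 29.2% beside 25.2%, with 1 fall without lineage 45 replicate 2. IDH2, mitochondrial isocitrate dehydrogenase, had 23.4, 23.8 and 28.0 CPM in lineage 22 and 13.5, 13.8 and 13.4 CPM in lineage 45, and PC, pyruvate carboxylase, rose by 0.49 ± 0.10.

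Genes for ribosomal proteins and respiratory chain subunits that passed the test were all lower in lineage 22. Of 58 cytosolic ribosomal protein genes, 12 fell and none rose in edgeR (0 higher and 21 lower at an unadjusted p under 0.05; 0 higher in DESeq2), with a median log2 difference of -0.16. The share of falls was 20.7%, beside 12% over all genes. There were 7 falls without lineage 22 replicate 1 and 6 without lineage 45 replicate 1. RPL5 had 843, 868 and 987 CPM in lineage 22 and 1427, 1322 and 1207 CPM in lineage 45, and RPL36 had 481, 479 and 483 CPM in lineage 22 and 775, 647 and 664 CPM in lineage 45. Of 41 nuclear genes of the respiratory chain, 8 fell and none rose in edgeR (0 higher and 9 lower at an unadjusted p under 0.05; 0 higher in DESeq2), with a median of -0.09. The share of respiratory chain falls was 19.5%, beside 12% over all genes. ATP5F1, an ATP synthase subunit, fell by log2 0.56 ± 0.08, and COX7A2, a cytochrome c oxidase subunit, by 0.67 ± 0.12. Many of these genes share chromosome segments, as given with the chromosome values.

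Replication genes passed the test more often than mitosis genes did, a difference that was not tested. Of 30 replication genes, 10 rose and 2, POLA1 and CCNE1, fell, or 40.0%, beside 25.2% over all genes. MCM5, a subunit of the replicative helicase, had 178, 178 and 185 CPM in lineage 22 and 123, 137 and 141 CPM in lineage 45, and POLD1, a DNA polymerase delta subunit, rose by log2 0.43 ± 0.08. CCNE1, cyclin E1, had 8.98, 10.1 and 9.56 CPM in lineage 22 and 16.8, 18.5 and 16.3 CPM in lineage 45. The rises numbered 5 without lineage 22 replicate 3 and 6 without lineage 45 replicate 1, and 4 genes fell without lineage 45 replicate 3. None of 27 mitosis genes passed in edgeR or in DESeq2, and 2 were higher and 0 lower at an unadjusted p under 0.05. In fits without 1 library, 1 mitosis gene rose without lineage 22 replicate 1 and 1 without lineage 45 replicate 2, and 2 fell without lineage 45 replicate 3.

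Defining markers of other cell types were mostly at or near 0 in both lineages, and their part in the results was not tested. Leukocyte markers summed to 251 to 298 CPM in lineage 22 and 243 to 259.6 CPM in lineage 45, nearly all of it from LAPTM5 and CD68, and 3 of the 4 tested passed. LAPTM5 had 156, 141 and 145 CPM in lineage 22 and 98.3, 90.3 and 97.5 CPM in lineage 45, CORO1A rose by log2 0.70 ± 0.19, and CD68 fell by 0.38 ± 0.12 (SE). The LAPTM5 call was lost without any 1 of the 6 libraries (edgeR adjusted p = 0.0556 to 0.0911), and the CD68 call without lineage 22 replicate 1 (0.11), lineage 22 replicate 2 (0.0947) or lineage 45 replicate 3 (0.0582) and with the 6 libraries alone (0.142). Of the others, CD53, CD3E, ITGAM and TYROBP had no more than 1 count in any library. Fibroblast markers summed to 8.33 to 9.62 CPM in lineage 22 and 6.52 to 7.78 CPM in lineage 45, nearly all of it from COL1A1, with DCN and POSTN at 0 counts. Of the 3 tested, LUM rose, with 10 counts in all lineage 22 libraries together and 1 count in those of lineage 45, a ratio of 10.6 (95% counting interval 1.51 to 461). Its edgeR adjusted p was 0.0153, against 0.0524 in DESeq2, 0.076 without lineage 45 replicate 1 and 0.0663 without lineage 45 replicate 2. Endothelial and erythroid markers summed to 142 to 152 CPM in lineage 22 and 129 to 143 CPM in lineage 45, nearly all of it from the junction gene ESAM, with HBB at 0 counts. The endothelial receptor gene KDR had 1.66, 2.02 and 2.12 CPM in lineage 22 and 3.51, 5.79 and 4.78 CPM in lineage 45 (log2 difference -1.28 ± 0.18, SE; edgeR adjusted p = 2.31e-05).

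Differences also ran along chromosomes. The median log2 difference of protein-coding genes was -0.17 on chromosome X, -0.15 on chromosome 7 and -0.13 on chromosome 4, and 0.12 on chromosome 22. On X, 40 of 439 genes were higher and 117 lower in lineage 22 from co-culture. In isolation the X pattern was the opposite, with a median of 0.49, 283 genes higher (64.5%) and 11 lower (2.51%). The interaction passed in edgeR for 280 of 439 X genes, beside 17.3% of all genes tested. Each of the 280 had a more negative difference from co-culture. On chromosome 7, with 615 genes, the direction was shared, with a median of -0.49 in isolation. There 25 genes were higher (4.07%) and 418 lower (68.0%), against 36 higher (5.85%) and 139 lower (22.6%) from co-culture. Each of the 4 chromosome medians kept its sign with RLE scaling, at 5 CPM or more, and without each library in turn: -0.22 to -0.14 on X, -0.16 to -0.13 on 7, -0.17 to -0.10 on 4 and 0.08 to 0.14 on 22.

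Windows of 20 Mb, chosen after the chromosome values were seen, showed where the genes lay. On chromosome 1 from 60 to 120 Mb the window medians were -0.42, -0.56 and -0.48 from co-culture and -0.45, -0.52 and -0.46 in isolation, and 32 of 55, 51 of 72 and 67 of 100 genes were lower. On X the first 40 Mb had medians of -0.60 and -0.68 from co-culture, with 35 of 50 and 18 of 29 genes lower, against 0.00 and 0.19 in isolation. On chromosome 19 the first 20 Mb had a median of -0.20 from co-culture and -0.54 in isolation, while 40 to 60 Mb had 0.22 and 0.15. Of 153 windows with at least 20 genes, 15 had an isolation median of -0.3 or less, and all 15 also had a median below 0 from co-culture (-0.56 to -0.11). They included every window of chromosome 7 and the adjoining windows of chromosome 1 from 60 to 120 Mb, so they were not 15 separate regions. In these 15 windows 34.7% of 1354 genes were lower and 4.80% higher from co-culture, against 9.40% lower and 15.1% higher among the 11314 genes of the 129 windows with an isolation median between the limits of -0.3 and 0.3. Another 9 windows had an isolation median of 0.3 or more, and in these 5 medians from co-culture were below 0 and 4 above.

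All 5 ribosomal protein genes tested in the 15 windows, RPL5, RPL36, RPS15 and RPS28 among them, were among the 12 that fell. Of the 8 respiratory chain genes that fell, 4 lay in those windows, where 5 such genes were tested, and NDUFA1 and COX7B lay on X. NDUFA1 and COX7B were higher in lineage 22 in isolation, as X genes were in general. F3, TFPI2 and CYR61, a matricellular protein that fell by log2 0.56 ± 0.09, also lay on chromosomes 1 and 7. The part that position had in these falls was not tested.

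**Figure D5:**
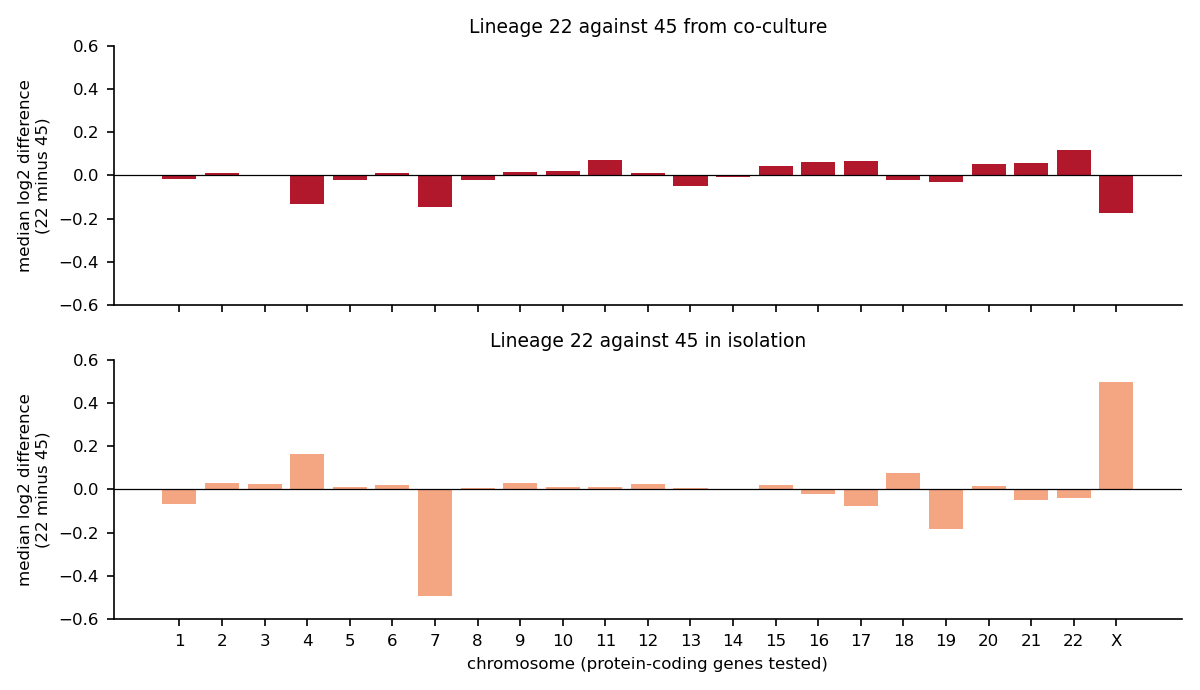
Median log2 difference of lineage 22 minus lineage 45 over the protein-coding genes of each chromosome, from co-culture (top) and in isolation (bottom). Chromosome 7 is below 0 in both panels, while chromosomes 4 and X are below 0 from co-culture and above 0 in isolation.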

How the data were processed

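The authors deposited estimated counts per gene, scaled for transcript length; the submitters' processing notes name STAR 2.6.1d, Salmon 1.4.0 and the build GRCh38 (hg38), and the scaling step is not given in the sources used here. Per the labels' protocols, stranded poly(A) libraries were sequenced in pairs of 75 nt. The estimated counts of 18 libraries in 6 groups were rounded, filtered (filterByExpr), scaled by TMM and fitted in a single edgeR 4.0.16 quasi-likelihood model (R 4.3.3, limma 3.58.1), with Benjamini-Hochberg adjustment over all 14570 genes tested and a threshold of 0.05. The contrasts were lineage 22 minus lineage 45 from co-culture, the same in isolation, and the difference between them. SE is the log2 difference divided by the square root of F. CPM values use TMM-scaled totals and compare a gene between groups, not genes with each other. Totals of 32125882 to 35502340 counts make counting error small beside replicate spread except for genes of few counts; intervals and floors cover counting error only.

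A few genes that these rules pick are not reported here. The text otherwise names the 15 largest rises and falls at 5 CPM or more without overlap, the 10 largest interactions, and up to 4 called members of each gene list with the smallest p. Other genes, such as the members behind a count of 5 or fewer, and the chromosome windows were chosen after their values were seen. The members and lists were chosen with earlier results of these data known. Of 845 listed symbols 842 were found, 13 by synonym, and 767 were tested. Genes were placed by GENCODE coordinates on GRCh38, with 14116 of 14570 matched. Same-numbered co-culture libraries of lineages 22 and 45 deviated together (r of 0.36, 0.25 and 0.17, all above 0.1). The numbers were therefore taken as pairs in the replicate block alternative, while the main fit had no block. Co-culture libraries labelled lineage 35 did not show this by number. Their r was -0.08, 0.03 and 0.04 with lineage 22 and -0.0009, -0.02 and 0.04 with lineage 45. The labels do not state a shared culture. The model was tested on simulated counts. Alternatives were DESeq2 1.42.0, RLE scaling, other filters, thinning, the 6 libraries alone, no lineage 35, the replicate block, a test against 1.5-fold and leaving out each library.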

Additional observations from a re-analysis of the deposited data

Results flagged for a closer look

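The difference between lineages 22 and 45 itself differed between co-culture and isolation for 2524 genes by the interaction test in edgeR. The 10 largest interactions were all negative, so lineage 22 stood less far above lineage 45 from co-culture than in isolation, or below it. On the log2 scale they were -9.65 for RPS6KA6, -8.87 for MAGEB2, -8.03 for UGT8, -7.54 for EMB and -6.79 for NLRP2. They were -6.77 for GPR158, -6.37 for LINC01602, -6.08 for PTGFRN, -6.06 for FRMD3 and -6.04 for LINC01139. For the 7 genes other than EMB, PTGFRN and FRMD3, which had at most 3 counts in isolated lineage 45, the fitted size depends on the prior count and is no bound. GPR158 had 5.40, 6.01 and 5.96 CPM in lineage 22 and 0.933, 1.67 and 1.33 CPM in lineage 45 from co-culture, with 1064 counts in isolated lineage 22 and 2 in isolated lineage 45. LINC01139 had 4.88, 4.46 and 4.98 CPM in lineage 22 and 0.849, 1.05 and 1.05 CPM in lineage 45 from co-culture, with 995 counts in isolated lineage 22 and 3 in isolated lineage 45. Co-culture and isolation libraries also differed in sorting and extraction, which cannot be told apart from the culture.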

How the results depend on the processing

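No gene that the naming rules picked and that passed the test from co-culture changed direction under the alternatives run. EMB, which did not pass that test, ran from -0.22 to 0.035 on the log2 scale. Medians of some gene lists also changed sign. With a filter that keeps well-counted genes, 123 genes were at least 2-fold higher and 65 lower. The 6 libraries alone gave 997 genes higher and 808 lower, and a test against 1.5-fold gave 245 higher and 138 lower, of which 226 and 127 were at least 2-fold. Leaving out each library gave 1441 to 1933 genes higher, 1329 to 1972 lower, 317 to 409 at least 2-fold higher, 222 to 354 at least 2-fold lower, and 2162 to 2821 interactions. DESeq2 gave 2062 higher and 1753 lower. With the replicate block, the 6 libraries alone gave 1970 higher and 1860 lower, and all 18 libraries gave 1940 higher and 1763 lower with 2555 interactions. Of the 3669 genes called, 3280 were also called with the block in the 6 libraries. Among genes reported here the pairing ended the calls of RPS6KA6, C1S, ERBB2 and CD44 and added EGFR, and changed no other call. Of the alternative values of named genes, 2553 kept their side of the threshold, 153 lost the call and 2 gained it. RPS6KA6 lost its call when libraries were thinned to the smallest one (edgeR adjusted p = 0.118), while CST4 kept its call (0.0303). The cause of these changes was not tested.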

Other observations

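Stress and detoxification genes held further differences. Of 16 NRF2 targets, which protect against oxidants, 6 rose and 3 fell in lineage 22, or 56.2%, beside 25.2% over all genes. There was 1 fall without lineage 22 replicate 3. NQO1, a quinone reductase, had 418, 484 and 474 CPM in lineage 22 and 249, 269 and 240.1 CPM in lineage 45 (log2 difference 0.86 ± 0.09, SE), and in isolation it averaged 389.7 ± 22.2 CPM in lineage 22 and 382 ± 39.8 CPM in lineage 45 (SD, n = 3 each; edgeR interaction adjusted p = 0.000145). HSPB8, a small heat shock protein, had 10.8, 11.4 and 10.6 CPM in lineage 22 and 26.0, 28.3 and 28.4 CPM in lineage 45 (log2 difference -1.33 ± 0.13, SE; edgeR interaction adjusted p = 5.46e-06). HSPB8 was 1 of 2 falls among 15 heat shock chaperones, of which 3 rose, HSPA1A by log2 0.73 and BAG3 by 0.38 among them. Together 33.3% passed, and leaving out each library in turn gave 2 to 4 rises and 1 to 3 falls. CTH, which makes cysteine from cystathionine, had 4.48, 4.81 and 3.40 CPM in lineage 22 and 9.22, 9.45 and 7.08 CPM in lineage 45. NUPR1, a stress-induced chromatin protein, had 1.89, 2.02 and 3.70 CPM in lineage 22 and 1.02, 1.38 and 1.22 CPM in lineage 45.

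Of 14 genes listed as breast cancer stem cell markers, 8 rose and 1, PROCR, fell, or 64.3%, beside 25.2% over all genes. LGR4, a receptor for R-spondins, had 135, 124 and 103 CPM in lineage 22 and 85.9, 78.1 and 76.2 CPM in lineage 45. The classical cadherin CDH3 rose by log2 1.66 ± 0.31, and CDH18 fell by 2.34 ± 0.37.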
